A study of Mus musculus with 4 samples.

Results

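The 31 genes described here carry out or control the handling of cholesterol in the cell, and they were followed in CD11b-positive cells of the mouse cortex. They were chosen by symbol from the 32227 genes of the deposited gene lists, with earlier results of these data known, and all 31 were found. They comprised 17 enzymes of cholesterol synthesis, 4 regulators of the SREBP pathway, 4 genes of LXR signalling and sterol efflux, 4 genes of lysosomal release and sterol transport, and 2 genes of sterol ester storage.

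Cells make cholesterol from acetyl-CoA through mevalonate, squalene and lanosterol. When the endoplasmic reticulum holds little sterol, SCAP escorts the transcription factor SREBP2 (gene Srebf2) to the Golgi for activation, and when sterol is ample INSIG proteins hold the pair back. Surplus sterol is sensed as oxysterols by the nuclear receptors LXR-alpha and LXR-beta (Nr1h3 and Nr1h2), which raise the efflux pumps ABCA1 and ABCG1, while sterol taken up with lipoproteins and debris is freed in lysosomes by LIPA, NPC1 and NPC2 and can be stored as esters by SOAT1 in droplets coated by PLIN2. In the brain, which lipoproteins of the blood do not reach, astrocytes make much of the sterol, and microglia take up lipid from debris and myelin.

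All mice were wild type and received, in the cortex on the day of birth or the day after, an adeno-associated virus whose cargo was driven by GfaABC1D, a promoter restricted to astrocytes. The cargo was mCherry (a fluorescent protein, the control group) or Hevin (a secreted protein encoded by Sparcl1 that promotes synapse formation), with 2 libraries per group. On postnatal day 15 the cortices were dissociated with actinomycin D, triptolide and anisomycin, which block transcription and translation, and CD11b-positive cells were collected on magnetic beads for PIPseq single-cell RNA sequencing. The number of animals behind each library is not stated in the labels, so p-values between the groups measure only the spread between these libraries, which may be technical. P-values between cell classes measure the spread left among the class sums of these same libraries once the library is accounted for.

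The 4 libraries held 61686 barcodes, of which 61371 were kept, with a median of 2329 to 4037 UMIs (unique molecular identifiers, each 1 counted RNA molecule) per kept cell. The lowest depth of a deposited barcode differed by library, from 965 to 2993 UMIs, and any 2 libraries shared 1 to 7 barcodes. Levels are given in CPM, UMIs scaled to a common library total, for replicates 1 and 2 of each group in that order. Sparcl1 itself was at 123 and 91.3 CPM with mCherry and at 86.4 and 78.4 CPM with Hevin over all cells, and at 5491 and 6710 CPM against 5129 and 9684 CPM in the few astrocytes, so the groups overlapped in the astrocytes and the Hevin libraries were the lower over all cells. Hevin replicate 1 stood apart in Xist, an RNA of the inactive X chromosome, with 1.19 CPM against at least 539.5 CPM in the other libraries. Cells were placed in classes by marker genes that include none of the 31. The microglia gate (P2ry12, Tmem119 and others) held 87.2% and 87.1% of the mCherry cells and 40.1% and 50.1% of the Hevin cells, and the border-macrophage gate (Lyve1, Cd163 and others) 5.56% to 7.58%. Cells with at least 1 UMI of Ms4a7 and in no other gate made up 0.398% and 0.341% of the mCherry cells and 41.6% and 37.6% of the Hevin cells, and carry no cell type name here. In sums over cells, fewer cells of a type and less RNA per cell cannot be told apart. Each class was checked with markers that the gates did not use, except that Ms4a7 is 1 of the border-macrophage markers. Cx3cr1, the fractalkine receptor of microglia, was at 2057 to 2800.2 CPM in the microglia gate, and the sum of 6 border-macrophage markers (Mrc1, Pf4 and others) was 14953 to 16084 CPM in the border-macrophage gate. The Ms4a7-gated cells of the Hevin libraries had 1212 and 1352 CPM of the former and 5504 and 5644 CPM of the latter. For these cells the latter sum includes Ms4a7, the gene of their own gate.

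The sequences just before the transcription start are shown for 4 of the genes because they carry the motifs named below and stand for the synthesis side (Hmgcs1, the first committed enzyme of the pathway, and Msmo1, a C4-sterol methyl oxidase) and for the efflux and storage side (Abca1 and Plin2). They are from RefSeq, build GRCm38.p6, and each is written 5′ to 3′ on the strand of its gene, ending at the base before the annotated start. Capitals mark matches to TCACNCCAC (a sterol regulatory element), to CCAAT (the letters bound by NF-Y, ATTGG on the other strand) or to the E-box CACGTG.
Hmgcs1, chr13:119690101-119690350, plus strand: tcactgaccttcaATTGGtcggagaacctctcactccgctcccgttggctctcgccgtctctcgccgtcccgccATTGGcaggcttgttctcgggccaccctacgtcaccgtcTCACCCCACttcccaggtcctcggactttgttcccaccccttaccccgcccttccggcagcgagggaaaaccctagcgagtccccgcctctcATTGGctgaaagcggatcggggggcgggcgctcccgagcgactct
Msmo1, chr8:64733579-64733828, minus strand: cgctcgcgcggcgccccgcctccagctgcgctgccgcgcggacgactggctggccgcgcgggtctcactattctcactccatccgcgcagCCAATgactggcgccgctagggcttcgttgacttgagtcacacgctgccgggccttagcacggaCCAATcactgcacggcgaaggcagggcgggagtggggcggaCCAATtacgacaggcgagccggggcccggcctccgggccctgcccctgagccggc
Abca1, chr4:53159896-53160145, minus strand: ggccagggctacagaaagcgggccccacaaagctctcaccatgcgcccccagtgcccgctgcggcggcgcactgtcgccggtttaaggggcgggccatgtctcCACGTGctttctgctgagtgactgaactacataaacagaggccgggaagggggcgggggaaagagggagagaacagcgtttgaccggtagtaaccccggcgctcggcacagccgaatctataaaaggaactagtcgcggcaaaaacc
Plin2, chr4:86670060-86670309, minus strand: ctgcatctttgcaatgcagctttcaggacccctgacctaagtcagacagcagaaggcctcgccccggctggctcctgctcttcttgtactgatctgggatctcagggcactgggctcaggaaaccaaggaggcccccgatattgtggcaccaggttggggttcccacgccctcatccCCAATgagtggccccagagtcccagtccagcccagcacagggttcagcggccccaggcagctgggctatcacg

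Promoter windows from 250 bases before to 50 bases after the start were found for 25 of the 31 genes. CCAAT on either strand was present in 14 of the 14 synthesis genes with a window and in 7 of 11 other members, against 41.1% of 27025 genes with a window of the same length. The sterol regulatory element matched in Hmgcs1 alone, where it began 137 bases before the start, against 1.44% of all genes. It was searched only as TCACNCCAC, without mismatches. Whether the other windows hold variant forms of it was not tested. The E-box lay in 7 of 25 members, against 8.09% of all genes, and Abca1 held it 147 bases before the start. The direct repeat DR4, which LXR dimers bind, was searched only in its exact form, without mismatches. That form had no match in the 25 windows and 4 matches among all genes. Variant forms of DR4 were not searched, so whether these windows hold LXR sites was not tested. Motifs were searched on both strands, and no match of 1 motif overlapped a match of another in the members' windows. In Plin2 an E-box lay across the start, 4 bases before it, and is not in the stretch shown. A match describes letters in the window, not a bound site. The members' windows held 61.2% G and C, against 53.8% for all genes.

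Over all kept cells the Hevin libraries held more RNA of 5 efflux, storage and lysosomal genes and less of 1 synthesis enzyme. Abca1, which loads cholesterol onto apolipoproteins, was at 219 and 249 CPM with mCherry and at 428 and 404 CPM with Hevin. Plin2, the coat protein of lipid droplets, was at 33.5 and 35.2 CPM against 65.0 and 57.7 CPM. For both genes the lower Hevin library lay above the higher mCherry library, and the fitted log2 differences (Hevin minus mCherry ± SE) were 0.83 ± 0.10 for Abca1 (edgeR adjusted p = 0.00307) and 0.84 ± 0.08 for Plin2 (edgeR adjusted p = 0.00158), which are 1.78-fold and 1.79-fold. Of the 31 members, 5 rose and 1 fell, against 6.85% of the 19119 tested genes that rose and 4.3% that fell. Library values did not overlap between the groups for 24 of 31 members, against 52.8% of all tested genes. With total counts as the scaling, which moved the median of all genes by −0.12, 38.9% of all called genes were higher (61.4% with TMM), and 2 members rose and 3 fell. Abca1 and Plin2 were the pair that still rose.

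The other 3 genes that rose did so by less. Soat1, which esterifies cholesterol for storage, was at 54.3 and 61.5 CPM with mCherry and at 75.7 and 80.5 CPM with Hevin (0.43 ± 0.08, edgeR adjusted p = 0.0188). Abcg1, which hands sterol to lipoprotein particles, was at 78.1 and 92.6 CPM against 119.5 and 113 CPM (0.45 ± 0.09, edgeR adjusted p = 0.0277). Npc2, which binds cholesterol in the lysosome, was at 765 and 779 CPM against 1045 and 959 CPM (0.38 ± 0.09, edgeR adjusted p = 0.0448). In all 3 genes the groups did not overlap, but without mCherry replicate 1 none of them passed: Soat1 was then at 0.35 (edgeR adjusted p = 0.0542), Abcg1 at 0.33 (0.0744) and Npc2 at 0.36 (0.275). Npc2 also failed without mCherry replicate 2 (0.39, edgeR adjusted p = 0.198) or Hevin replicate 1 (0.32, edgeR adjusted p = 0.103). Abca1 and Plin2 kept their calls without any 1 library.

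Of the other efflux and lysosomal members, none passed. Lipa, the lysosomal acid lipase that frees cholesterol from esters, was at 79.2 and 86.8 CPM with mCherry and at 85.8 and 97.3 CPM with Hevin, and the groups overlapped (0.14 ± 0.09, edgeR adjusted p = 0.407). Npc1, the membrane partner of NPC2, was at 112 and 119.5 CPM against 104 and 115 CPM (−0.08 ± 0.08, edgeR adjusted p = 0.633), so Npc2 passed the test and Npc1 did not. The difference between them was not tested. Nr1h3, which encodes LXR-alpha, was near the floor of detection, at 1.48 and 1.09 CPM against 1.67 and 1.79 CPM (0.42 ± 0.24, edgeR adjusted p = 0.366).

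Among the synthesis enzymes 1 of 17 passed, and 14 of 17 fitted differences were negative with a median of −0.17, beside a median of 0.00 over all genes tested. Msmo1 was at 32.1 and 27.3 CPM with mCherry and at 22.8 and 22.0 CPM with Hevin (−0.41 ± 0.10, edgeR adjusted p = 0.0447). It lost the call without mCherry replicate 1 (−0.29, edgeR adjusted p = 0.257), without Hevin replicate 1 (−0.43, 0.0575) and without Hevin replicate 2 (−0.39, 0.0857). Sqle, squalene epoxidase and a rate-limiting step, had the lowest fitted difference, with 3.47 and 3.21 CPM against 2.30 and 2.20 CPM (−0.57 ± 0.17, edgeR adjusted p = 0.0898). Hmgcs1 was at 21.6 and 22.0 CPM against 18.9 and 19.4 CPM (−0.19 ± 0.08, edgeR adjusted p = 0.233). In each of these 3 genes both Hevin libraries were below both mCherry libraries. The summed level of the 17 enzymes was 288 and 267 CPM with mCherry and 232 and 235 CPM with Hevin. These sums are plain CPM, without the TMM scaling of the other values here. Scaling by total counts also lowered the median difference of all genes, as given above.

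The regulators did not pass either. Srebf2 was at 22.8 and 22.9 CPM with mCherry and at 19.9 and 20.8 CPM with Hevin (−0.17 ± 0.08, edgeR adjusted p = 0.282). Insig1, itself a target of SREBP2, was at 10.4 and 10.2 CPM against 7.64 and 8.61 CPM (−0.35 ± 0.12, edgeR adjusted p = 0.121). Srebf1, which drives mainly fatty acid synthesis, was at 21.3 and 23.0 CPM against 21.8 and 22.5 CPM (0.00 ± 0.09, edgeR adjusted p = 0.996), and its groups overlapped while those of Srebf2 and Insig1 did not. Scap, the sterol sensor that carries SREBP2, was at 29.1 and 32.9 CPM against 26.01 and 27.4 CPM (−0.22 ± 0.09, edgeR adjusted p = 0.196).

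**Figure D1:**
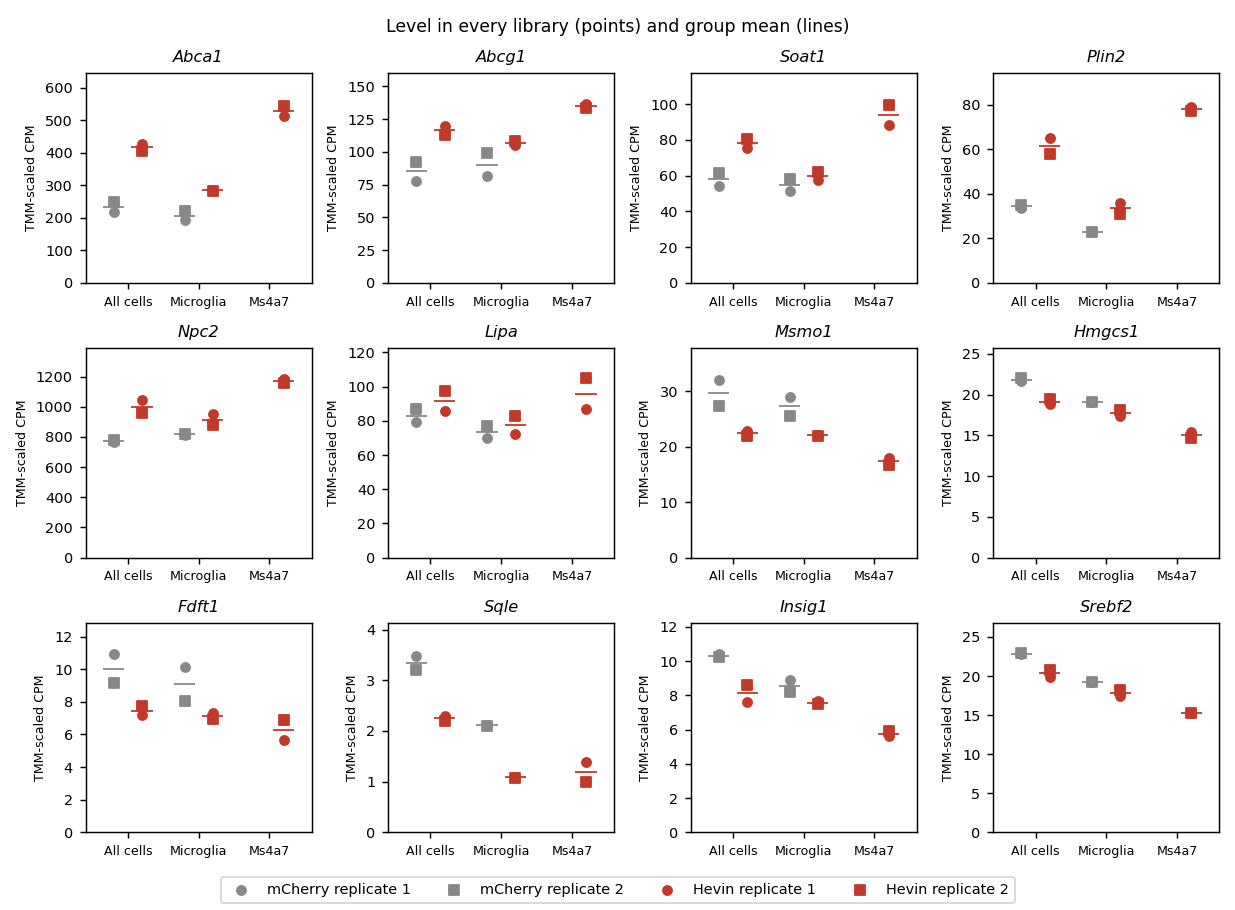
Level of 12 genes in TMM-scaled CPM (vertical axis, from 0) in all kept cells, in the microglia gate and in the Ms4a7 gate of the Hevin libraries; each point is 1 library, grey for mCherry and red for Hevin, and lines are group means. The 3 columns of a panel come from separate fits and were scaled separately. Abca1 and Plin2 were higher in both Hevin libraries than in both mCherry libraries in all kept cells and in the microglia gate.

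Genes of the wider pathway outside the 31 were read from 6 lists, beside 6.85% of all tested genes that rose and 4.3% that fell. Apoe, the main lipid carrier of the brain and an LXR target, was at 2695 and 2497 CPM with mCherry and at 23068 and 19098 CPM with Hevin (3.02 ± 0.14, edgeR adjusted p = 8.12e-05). Apoc1, a small apolipoprotein encoded beside it, rose by 3.30 ± 0.17 (edgeR adjusted p = 0.000107). The list of other LXR targets and cofactors nonetheless went both ways, with 4 of 16 that rose and 3 that fell, among them Lpcat3, a phospholipid acyltransferase (−0.56, edgeR adjusted p = 0.011), and Lpl, lipoprotein lipase (−0.52, edgeR adjusted p = 0.00514). Of 10 uptake genes Msr1, a scavenger receptor, rose (1.77, edgeR adjusted p = 8.32e-05) and Sort1, a sorting receptor, fell (−0.77, edgeR adjusted p = 0.0173). Of 20 sterol transport and ester genes 4 rose, led by Nceh1, a cholesterol ester hydrolase (0.72, edgeR adjusted p = 0.00511), and Gramd1b, which moves sterol from the plasma membrane to the endoplasmic reticulum (0.67, edgeR adjusted p = 0.00537). 1 of them, Stard3, fell (−0.51, edgeR adjusted p = 0.00952). Cyp27a1, which makes 27-hydroxycholesterol, rose (1.12, edgeR adjusted p = 0.000871) as 1 of 2 of 6 oxysterol genes. None of 12 further synthesis genes and none of 10 further sterol-sensing genes passed. Of these, 4 and 3 had an unadjusted edgeR p below 0.05, against 4611 of all 19119 genes tested.

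The makeup of the libraries moved with these differences. In the Hevin libraries the Ms4a7 gate held 48.4% and 39.4% of all UMIs. It held 56.2% and 50.2% of the Abca1 UMIs, 57.0% and 49.97% of the Plin2 UMIs and 54.5% and 46.2% of the Soat1 UMIs, all above its share of all UMIs in the same library. Of the 17 synthesis enzymes 13 were below that share in both libraries and 2, Mvk and Tm7sf2, above it in both, and all 4 SREBP regulators were below it in both. Examples were 38.1% and 28.2% of the Hmgcs1 UMIs, 37.0% and 28.4% of the Msmo1 UMIs and 34.3% and 25.6% of the Insig1 UMIs. Apoe was the most unequal of the genes counted this way, with 73.2% and 74.4%. A share of all UMIs is weighted toward abundant RNAs, and how many of all genes lay below it was not counted. In the fitted comparison with the microglia gate, given below, 2 of 17 enzymes were called higher and 2 lower, against 14.8% of all genes in each direction. Among the synthesis genes of low level, Sqle had much of its RNA in few cells: the 66 and 21 astrocyte-gated cells of the Hevin libraries held 26.4% and 26.8% of the Sqle UMIs. In the mCherry libraries 68 and 25 such cells held 23.6% and 17.6% of them.

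**Figure D2:**
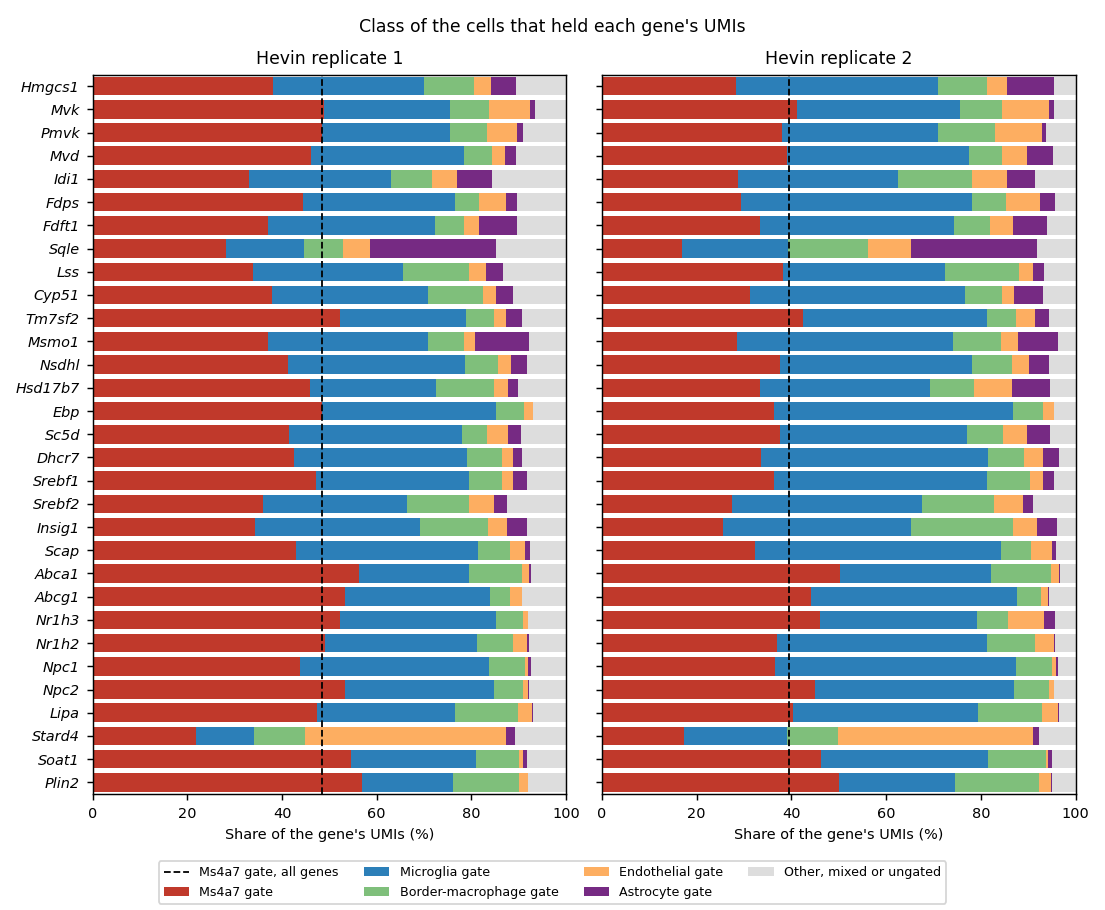
Share of each gene's UMIs (horizontal axis, %) that lay in cells of each class, for the 2 Hevin libraries; the dashed line is the share of all UMIs in the Ms4a7 gate (48.4% and 39.4%). Abca1, Soat1 and Plin2 extend past the line in both libraries, and Sqle and Stard4 lie below it, with large shares in astrocyte-gated and endothelial-gated cells.

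Within the microglia gate none of the 31 members passed, against 1.03% of 17256 genes (0.875% rose). An unadjusted edgeR p below 0.05 was reached by 4 members, against 1482 of all 17256 genes. DESeq2 called 2 members, Abca1 and Plin2. Abca1 was at 193 and 221 CPM with mCherry and at 286 and 283 CPM with Hevin (0.46 ± 0.09, edgeR adjusted p = 0.0986). Plin2 was at 23.1 and 23.0 CPM against 35.7 and 31.1 CPM (0.54 ± 0.10, edgeR adjusted p = 0.0869). Both genes separated the groups, and the fitted differences were smaller than over all cells (0.83 and 0.84). DESeq2 gave 0.45 for Abca1 (adjusted p = 0.000829) and 0.53 for Plin2 (adjusted p = 0.0121). The size moved with the gate. With a stricter share of marker UMIs (0.8%) Abca1 was at 0.31 (edgeR adjusted p = 0.501) and Plin2 at 0.40 (0.379), and with a looser one (0.4%) at 0.77 (0.00734) and 0.85 (0.00526).

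Markers of the Ms4a7-gated cells moved with the group inside the microglia gate. Ms4a7 itself was at 14.3 and 8.88 CPM with mCherry and at 218 and 151 CPM with Hevin there. The 6 border-macrophage markers, Ms4a7 among them, summed to 655 and 583 CPM against 1718 and 1264 CPM, with none of them at 0. The part of such cells or their RNA in the differences of Abca1 and Plin2 was not tested. Apoe in the same gate was at 1594 and 1354 CPM against 8864 and 6455 CPM (2.38, edgeR adjusted p = 0.00438). Apoc1 (1.92, edgeR adjusted p = 0.00937), Msr1 (2.28, edgeR adjusted p = 0.00866) and Cyp27a1 (0.81, edgeR adjusted p = 0.0258) also rose. Cyp27a1 lost its call without Hevin replicate 1 (0.68, edgeR adjusted p = 0.0502), and at the stricter gate Msr1 was at 1.68 (0.0542) and Cyp27a1 at 0.57 (0.131).

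The remaining members were closer together in the microglia gate. Soat1 was at 51.6 and 58.3 CPM with mCherry and at 57.4 and 62.3 CPM with Hevin, which overlapped (0.12, edgeR adjusted p = 0.845). Abcg1 was at 81.5 and 99.1 CPM against 105 and 108 CPM (0.24, edgeR adjusted p = 0.581), and Npc2 at 811 and 823 CPM against 949.8 and 882 CPM (0.16, edgeR adjusted p = 0.696). Of the 17 enzymes 15 had a negative difference, with a median of −0.16 and 10 that did not overlap, while 8976 of all 17256 genes were negative. Sqle was again the lowest, at 2.12 and 2.10 CPM against 1.09 and 1.07 CPM (−0.96 ± 0.25, edgeR adjusted p = 0.249), but this rests on 119, 86, 20 and 25 UMIs. Sqle there was at 1.40%, 1.25%, 0.730% and 0.567% of its level in the astrocyte-gated cells of the same libraries, within the range that 12 astrocyte markers had in the same cells of each library (0.0891% to 3.55% in all). The 12 included the markers of the astrocyte gate, which the gating itself holds down in other classes. The part of astrocyte RNA in the Sqle difference was not tested. Msmo1 was at 29.0 and 25.6 CPM against 22.1 and 22.0 CPM (−0.31, edgeR adjusted p = 0.412), and Hmgcs1 at 19.1 and 19.2 CPM against 17.4 and 18.1 CPM (−0.11, edgeR adjusted p = 0.907). Across the members 18 of 31 separated the groups, against 37.2% of all genes.

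To compare cells at 1 depth, each was thinned to 1000 UMIs, which left out 131 microglia-gated and 75 Ms4a7-gated cells of Hevin replicate 1. An Abca1 UMI was then found in 17.02% and 19.0% of microglia-gated cells of the mCherry libraries, in 23.4% and 23.0% of those of the Hevin libraries and in 38.3% and 39.6% of the Ms4a7-gated cells of the Hevin libraries. The counting intervals (95%, exact Clopper-Pearson, counting error only) of the Hevin microglia-gated cells, 22.5% to 24.4% and 22.0% to 24.0%, did not meet those of the Ms4a7-gated cells, 37.2% to 39.3% and 38.2% to 41.0%. Before thinning these shares were 45.0%, 54.5%, 42.4%, 55.0%, 69.7% and 80.1%, at median depths of 3274, 3955, 2064, 3287, 2848 and 3698 UMIs. Endothelial cells, which use Abca1 too, stood at 18.1% to 22.1% after thinning. A Plin2 UMI was found in 2.17% and 2.43% of mCherry and 3.35% and 3.02% of Hevin microglia-gated cells, and in 6.77% and 6.89% of Ms4a7-gated cells, beside 3.25% to 6.04% in endothelial-gated cells. Unthinned, Plin2 stood at 7.72%, 9.09%, 7.63%, 9.61%, 19.3% and 23.0% in the same order. For Soat1, which endothelial-gated cells held at 0.656% to 3.85%, the share was 5.13% and 5.54% against 5.53% and 5.88% in microglia-gated cells and 7.76% and 8.91% in Ms4a7-gated cells.

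Inside the Hevin libraries the Ms4a7-gated cells were compared with the microglia-gated cells of the same libraries, with the library as a block. The fit also held the border-macrophage and endothelial sums, so the spread behind its p-values comes from all of these gates. Ms4a7-gated cells held more of Plin2, Abca1, Soat1, Npc2, Lipa, Mvk and Pmvk and less of Msmo1, Hmgcs1, Scap and Npc1. Plin2 was at 36.9 and 32.0 CPM in microglia-gated cells of Hevin replicates 1 and 2 and at 79.1 and 77.2 CPM in Ms4a7-gated cells (1.19 ± 0.08, edgeR adjusted p = 1.23e-06), a 2.28-fold difference. Abca1 was at 294 and 291 CPM against 514 and 543 CPM (0.85 ± 0.07, edgeR adjusted p = 8.45e-06), or 1.80-fold. Soat1 was at 59.2 and 64.1 CPM against 88.2 and 99.6 CPM (0.61 ± 0.10, edgeR adjusted p = 0.00121). In these 3 genes both libraries showed the same direction and the classes did not overlap. In all, 7 members rose and 4 fell, against 14.8% of 15814 genes in each direction, and 21 of 31 did not overlap, against 59.9% of all genes.

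The lysosomal genes differed among themselves in this comparison. Npc2 was at 979 and 907 CPM in microglia-gated and at 1188 and 1155 CPM in Ms4a7-gated cells (0.31 ± 0.08, edgeR adjusted p = 0.0123), and Lipa at 74.3 and 85.4 CPM against 86.8 and 105 CPM (0.26 ± 0.07, edgeR adjusted p = 0.0151). Npc1 fell, from 123 and 132 CPM to 97.8 and 113 CPM (−0.28 ± 0.07, edgeR adjusted p = 0.0106). Abcg1, at 109 and 111 CPM against 136 and 133 CPM, separated the classes but did not pass (0.29 ± 0.13, edgeR adjusted p = 0.11). Nr1h3 was at 1.63 and 1.33 CPM against 1.87 and 2.21 CPM (0.47 ± 0.34, edgeR adjusted p = 0.361).

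The synthesis enzymes did not move as 1 group in the Ms4a7-gated cells. The early mevalonate kinases rose, Mvk from 6.09 and 6.01 CPM to 8.03 and 8.52 CPM (0.45 ± 0.14, edgeR adjusted p = 0.0347) and Pmvk from 14.7 and 12.1 CPM to 19.0 and 16.6 CPM (0.42 ± 0.14, edgeR adjusted p = 0.04). Msmo1 fell from 22.8 and 22.6 CPM to 18.01 and 16.7 CPM (−0.38 ± 0.10, edgeR adjusted p = 0.0168), and Hmgcs1 from 17.9 and 18.7 CPM to 15.4 and 14.7 CPM (−0.28 ± 0.10, edgeR adjusted p = 0.0481). These 4 calls did not survive DESeq2, where Mvk was at 0.45 (adjusted p = 0.11), Pmvk at 0.41 (0.217), Msmo1 at −0.39 (0.0944) and Hmgcs1 at −0.29 (0.214). DESeq2 also put Soat1 at 0.60 (adjusted p = 0.0795). Sqle was at 1.13 and 1.10 CPM against 1.38 and 1.00 CPM, which overlapped (0.12, edgeR adjusted p = 0.854).

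Of the regulators Scap fell, from 29.7 and 32.0 CPM to 23.9 and 23.7 CPM (−0.37 ± 0.09, edgeR adjusted p = 0.00728). Srebf2 was at 17.98 and 18.7 CPM in microglia-gated and at 15.3 and 15.3 CPM in Ms4a7-gated cells (−0.26 ± 0.09, edgeR adjusted p = 0.0583), and it passed under 5 alternatives, with −0.34 (edgeR adjusted p = 0.0172) at the stricter microglia gate. Insig1 was at 7.89 and 7.69 CPM against 5.60 and 5.89 CPM (−0.43 ± 0.17, edgeR adjusted p = 0.0891), and Srebf1 at 21.0 and 22.8 CPM against 22.0 and 21.8 CPM (0.00 ± 0.09, edgeR adjusted p = 0.981). Both classes were separate for Scap, Srebf2 and Insig1 and overlapped for Srebf1. Of 10 further sterol-sensing genes 4 fell and none rose, against 14.8% of all genes in each direction. Those that fell included Insig2, the second INSIG protein, at −0.68, Tmem97 at −0.40 and the ubiquitin ligase Rnf139 at −0.29.

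Other lists were split in this comparison, in which 14.8% of all genes passed in each direction. Among 15 tested LXR targets and cofactors 6 rose and 4 fell, with Apoc1 at 2.35, Apoe at 2.26 and Smpdl3a at 1.13 on the rising side and Lpcat3 at −1.21 on the falling side. Of 9 uptake genes Msr1 (2.34) and Cd36 (1.68), both scavenger receptors, rose, while Sort1 (−1.51) and Lrp1 (−0.62), a large endocytic receptor for APOE particles, fell. Of 19 transport and ester genes 5 rose, with Nceh1 at 1.30, Fabp5, a fatty acid carrier, at 1.14 and Gramd1b at 0.81, and 6 fell, with Stard3, which tethers late endosomes, at −0.93. Cyp27a1 rose by 1.08 as 1 of 2 of 6 oxysterol genes. Of 12 further synthesis genes Acat1 rose (0.39) and Acly (−0.47) and Ggps1 (−0.26) fell. The median of the 31 members was 0.04, beside −0.01 for all genes tested.

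**Figure D3:**
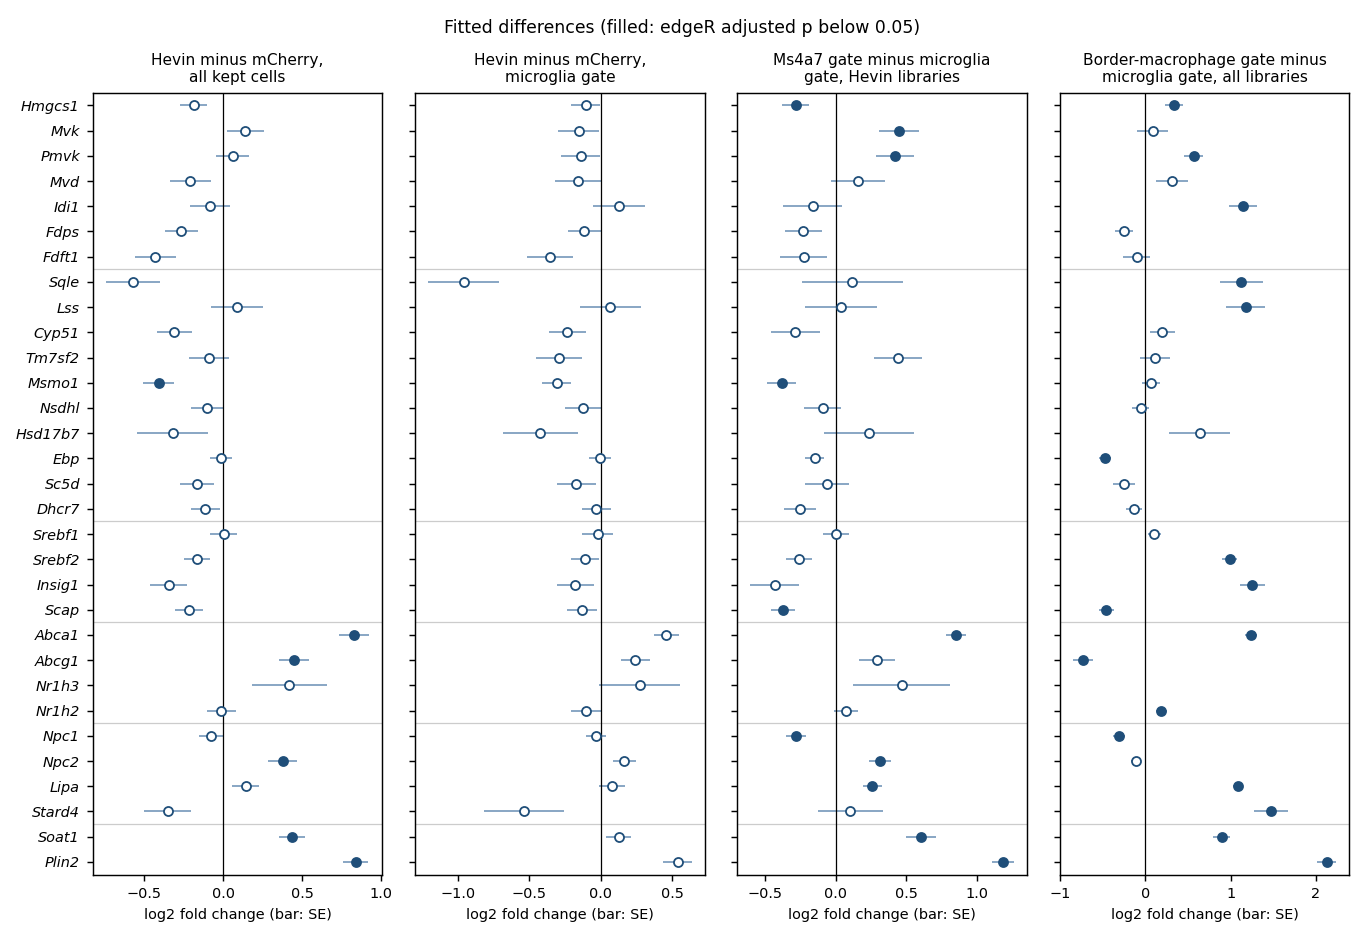
Fitted log2 difference ± SE (horizontal axis) of each of the 31 genes in 4 comparisons, grouped by role; filled points passed edgeR's test at an adjusted p below 0.05. In the Ms4a7 gate against the microglia gate Plin2 (1.19) and Abca1 (0.85) lie farthest to the right, and in border macrophages Plin2 (2.12), Stard4 (1.47), Insig1 (1.26) and Abca1 (1.24) do.

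Border macrophages, which line the meninges and vessels, held more Plin2 in every library than the microglia, Ms4a7 and endothelial gates. Over all 4 libraries (mCherry replicates 1 and 2, then Hevin replicates 1 and 2) Plin2 was at 114, 141, 128 and 131 CPM in border-macrophage-gated cells and at 24.8, 24.7, 37.8 and 33.0 CPM in microglia-gated cells (2.12 ± 0.11, edgeR adjusted p = 1.15e-08). Abca1 was at 542, 581, 674 and 652 CPM against 207.5, 238, 302 and 300.2 CPM (1.24 ± 0.07, edgeR adjusted p = 1.5e-08), and Lipa at 174, 180, 160 and 171 CPM against 75.2, 83.03, 76.3 and 88.0 CPM (1.09 ± 0.06, edgeR adjusted p = 1.23e-08). All 4 libraries showed each of these differences, with no overlap. Of 30 members tested 13 were higher and 4 lower, against 27.6% and 31.4% of 13184 genes (59% in either direction), and 16 of 30 did not overlap, against 52.6% of all genes.

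Of the 4 SREBP regulators 2 were higher in border macrophages than in microglia-gated cells, Srebf2 and Insig1, and Scap was lower (−0.46). Srebf2 was at 38.0, 42.2, 36.9 and 40.9 CPM against 20.7, 20.6, 18.5 and 19.3 CPM (0.99 ± 0.09, edgeR adjusted p = 1.07e-06). Insig1 was at 17.9, 25.9, 15.5 and 23.9 CPM against 9.58, 8.80, 8.10 and 7.92 CPM (1.26 ± 0.15, edgeR adjusted p = 1.25e-05). Of the synthesis enzymes 5 of 17 were higher and 1 lower, against 27.6% and 31.4% of all genes tested. Lss (1.18), Idi1 (1.14), Sqle (1.12), Pmvk (0.57) and Hmgcs1 (0.34) were the higher ones and Ebp (−0.48) the lower one. Of 10 further sterol-sensing genes 3 were higher and 4 lower, against the same shares of all genes. The lower members beside Ebp and Scap were Abcg1 (−0.73) and Npc1 (−0.31). Hmgcs1 lost its call without Hevin replicate 1 (0.26, edgeR adjusted p = 0.0749).

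Set against border macrophages, the Ms4a7-gated cells of the Hevin libraries held less Abca1 and Plin2 and more Abcg1. In that fit Abca1 was at 650 and 635 CPM in border-macrophage-gated cells and at 514 and 543 CPM in Ms4a7-gated cells (−0.28, edgeR adjusted p = 0.013), and Plin2 at 123 and 128 CPM against 79.1 and 77.2 CPM (−0.68, edgeR adjusted p = 8.27e-05). Soat1 did not pass, with 94.0 and 123 CPM against 88.2 and 99.6 CPM (−0.21, edgeR adjusted p = 0.205). For Abca1 and Plin2 the values of the Ms4a7-gated cells lay between those of the microglia and border-macrophage gates. Of the 4 SREBP regulators 2 were lower than in border macrophages: Insig1 was at 14.9 and 23.2 CPM against 5.60 and 5.89 CPM (−1.72, edgeR adjusted p = 6.55e-05) and Srebf2 at 35.5 and 39.8 CPM against 15.3 and 15.3 CPM (−1.30, edgeR adjusted p = 6.97e-06). Abcg1 went the other way, at 68.0 and 72.1 CPM against 136 and 133 CPM (0.94, edgeR adjusted p = 0.000673). In all 3 members were higher and 11 lower, against 16.3% and 16.5% of 15814 genes (32.8% in either direction), and 20 of 31 did not overlap, against 63.4%.

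Between the groups, border macrophages gave no call among 30 members tested, against 0.414% of 12305 genes. An unadjusted edgeR p below 0.05 was reached by 4 members, against 995 of all 12305 genes. The groups did not overlap for 12 members, against 36.3% of all genes. Abca1 was at 569 and 608 CPM with mCherry and at 716 and 679 CPM with Hevin (0.24 ± 0.09, edgeR adjusted p = 0.505), and Abcg1 at 57.2 and 57.5 CPM against 75.0 and 77.1 CPM (0.41 ± 0.10, edgeR adjusted p = 0.228). Plin2 was at 120.009 and 148 CPM against 136 and 137 CPM and overlapped (0.03, edgeR adjusted p = 0.987). Whether the Hevin effect differed between border macrophages and the microglia gate was tested as an interaction. No member passed, against 0.609% of 15767 genes. Plin2 was at −0.48 ± 0.12 (edgeR adjusted p = 0.181), and it passed without mCherry replicate 1 (−0.63, edgeR adjusted p = 0.046) or without Hevin replicate 2 (−0.58, edgeR adjusted p = 0.0363). Abca1 was at −0.21 (edgeR adjusted p = 0.847).

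In endothelial-gated cells 28 members were tested between the groups and none passed, against 0.0274% of 10949 genes. None had an unadjusted edgeR p below 0.05, against 594 of all 10949 genes. The groups did not overlap for 9 members, against 33.9% of all genes. DESeq2 called no member either. Abca1 was at 0.12 and Plin2 at 0.08. Apoe, which these cells make little of, was at 932 and 649.7 CPM against 3878 and 2461 CPM (2.00 ± 0.22, edgeR adjusted p = 0.037), and Ms4a7 was at 11.9 and 11.1 CPM against 93.4 and 57.2 CPM in the same cells. The part of RNA from other cells in the Apoe difference was not tested. Against microglia-gated cells 11 of 30 members were higher and 7 lower in endothelial-gated cells, against 34.7% and 36.7% of 13184 genes. The largest difference was that of Stard4, a soluble sterol carrier, which was at 64.4, 65.2, 71.4 and 70.8 CPM against 3.83, 3.02, 1.79 and 2.82 CPM (4.50 ± 0.16, edgeR adjusted p = 8.4e-11). They held 41.1% to 44.7% of the Stard4 UMIs of each library.

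Astrocytes, the cells the virus addresses, passed the CD11b selection in small numbers, and the comparison with microglia-gated cells was added after the levels had been seen. They held 68, 25, 66 and 21 cells, and here 21 of 31 members were higher and 6 lower, against 23.3% and 27.9% of 13760 genes, with 27 that did not overlap, against 51% of all genes. Sqle was at 140, 148, 131 and 163 CPM in astrocyte-gated cells and at 2.33, 2.37, 1.21 and 1.21 CPM in microglia-gated cells (6.31 ± 0.24, edgeR adjusted p = 1.43e-14). Msmo1 was at 755, 657, 563 and 511 CPM against 31.9, 28.8, 24.5 and 24.6 CPM (4.51 ± 0.11, edgeR adjusted p = 4.56e-17). Hmgcs1 was at 282, 290.3, 218 and 538 CPM against 21.0, 21.6, 19.2 and 20.3 CPM (3.96 ± 0.18, edgeR adjusted p = 2.67e-13). No library overlapped in any of the 3 genes. All 7 enzymes from mevalonate to squalene and 9 of 10 later ones were higher, and Ebp alone was lower (−2.33 ± 0.22, edgeR adjusted p = 1.52e-08). Srebf2 (2.72), Srebf1 (2.34) and Insig1 (3.41) were higher too.

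Of the 10 members outside synthesis and SREBP regulation 5 were lower in astrocyte-gated cells and 2 higher, against 27.9% and 23.3% of all genes. Abcg1 (−2.71), Lipa (−1.72) and Npc2 (−1.54) were lower than in microglia-gated cells. Abca1 was at 222, 209, 300 and 158 CPM against 212, 249, 316 and 318 CPM and overlapped (−0.26 ± 0.13, edgeR adjusted p = 0.115). Plin2 was at 19.3, 5.09, 16.4 and 27.2 CPM against 25.3, 25.9, 39.5 and 34.9 CPM (−0.81 ± 0.37, edgeR adjusted p = 0.0752). Stard4 (2.47, edgeR adjusted p = 0.000195) and Soat1 (0.82, edgeR adjusted p = 0.00055) were the 2 that were higher. The astrocyte-gated cells also held microglial RNA. The 8 markers of the microglia gate, none at 0, summed to 801 to 2386 CPM in them, against 11205 to 14542 CPM in the microglia gate. The gating holds this sum down, since cells passing 2 gates were left out. For 7 microglial markers that no gate used, the sums were 15805 to 21429 CPM against 54086 to 66435 CPM. Which cells that RNA came from was not tested. The part of microglial RNA in the levels of Abca1, Plin2, Npc2 and Lipa in astrocyte-gated cells was not tested either. Summed over the 17 enzymes the astrocyte-gated cells held 1964 to 2855 CPM in the 4 libraries, the microglia gate 231 to 267 CPM, border macrophages 254 to 298 CPM, and the Ms4a7 gate of the Hevin libraries 209 and 204 CPM. As a measure of stray astrocyte RNA, 12 astrocyte markers were read in the microglia, Ms4a7, border-macrophage and endothelial gates. Their median was 0.185% to 1.10% of their astrocyte level. The 12 include the markers of the astrocyte gate, which the gating itself holds down in other classes. The 6 that the gate did not use summed to 36.5 to 113 CPM in the microglia gate and 291 to 403 CPM in the endothelial gate. In astrocyte-gated cells these 6 summed to 10277 to 17277 CPM. The median of the 17 enzymes in the 4 gates was 5.21% to 14.1% of their astrocyte level. In the microglia gate Sqle was the lowest of the 17.

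**Figure D4:**
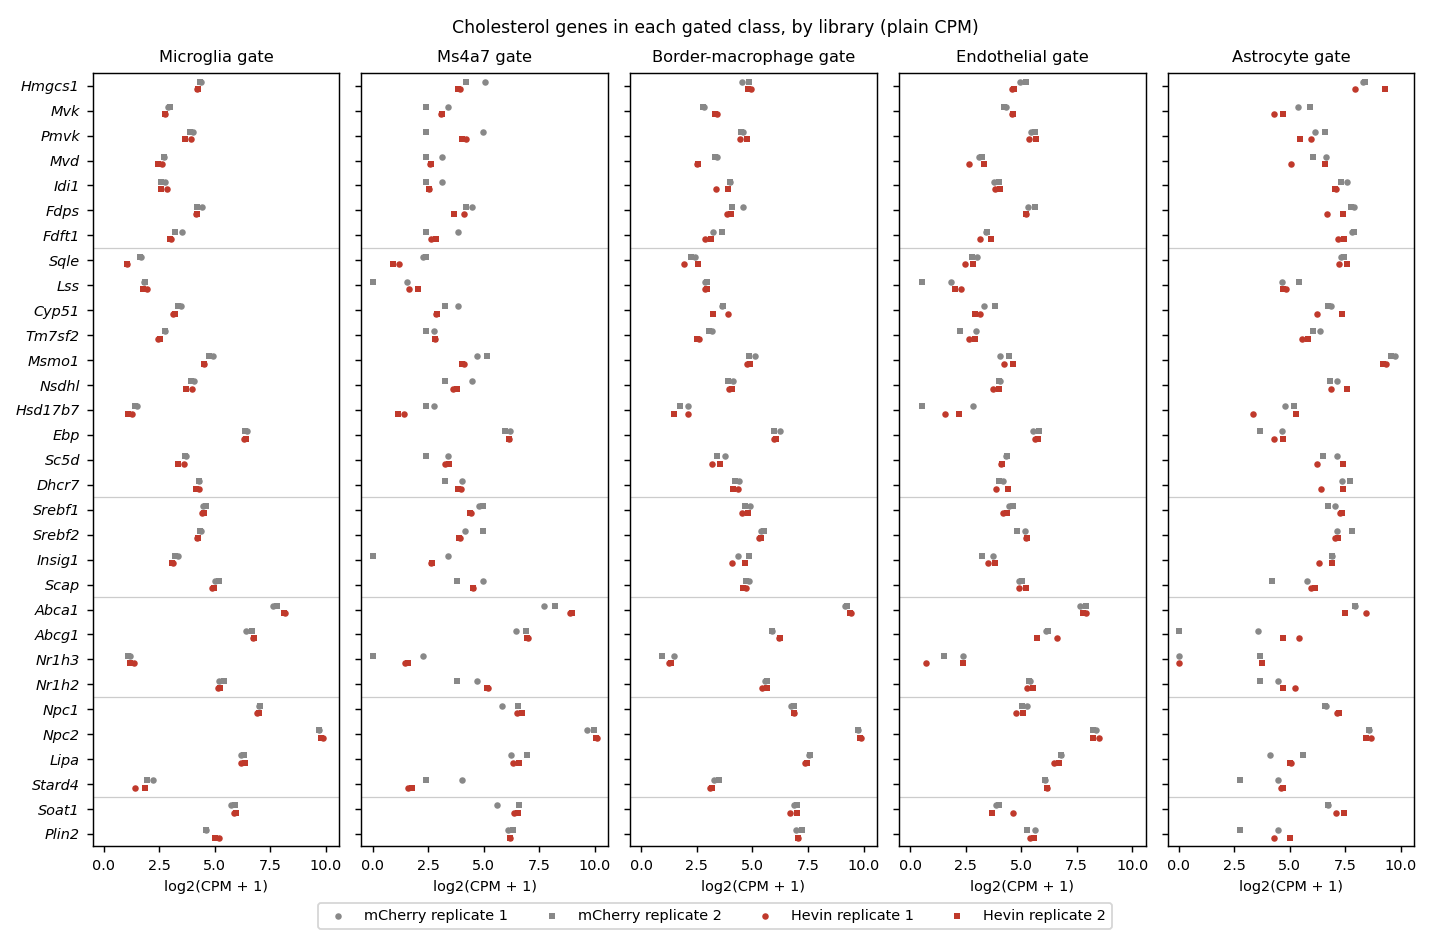
Level of each of the 31 genes in 5 gated classes (horizontal axis, log2 of plain CPM + 1); each point is 1 library, grey for mCherry and red for Hevin, and lines part the roles. Synthesis enzymes other than Ebp lie farther right in the astrocyte gate than in the microglia gate, and the Ms4a7 gate of the mCherry libraries rests on 71 and 37 cells.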

How the data were processed

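Per the submitters' processing notes, reads were set against build mm10, and the authors deposited for each of the 4 libraries a matrix of raw UMI counts by gene and barcode. The aligner, the counting program, the rule for calling a barcode a cell and the use of strand were not given in the sources used here, and genes that overlap others or have near copies could have shared reads. The 27 rows with a repeated symbol stayed separate genes.

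Cells needed 500 UMIs and 300 detected genes or more, and no more than 10% mitochondrially encoded UMIs. Scrublet (scanpy 1.11.5) marked 2 doublets per mCherry library (0.0112% and 0.0184%) and 285 and 275 of the Hevin cells (1.45% and 2.11%). Since it failed with mCherry, no cell was removed on its calls, and cells passing 2 gates were left out of the classes. Gates asked for a minimum share of a cell's UMIs from summed markers: 0.6% for microglia, 0.1% for border macrophages, 0.3% for endothelial cells and 0.5% for astrocytes. Counts were summed per library and class and tested with edgeR 4.0.16 (quasi-likelihood, TMM, filterByExpr, Benjamini-Hochberg over all genes tested, threshold 0.05) in R 4.3.3. Comparisons of classes had the library as a block and were fitted together with the border-macrophage and endothelial sums, which share the estimate of the spread. The interaction used the microglia and border-macrophage sums alone. CPM were TMM-scaled within each fit, and plain for marker sums, for summed enzymes and where a class was given outside a fit. DESeq2 1.42.0, other scalings, filters and gates and leaving out each library were the alternatives. The fits were also run on simulated counts with 200 changed genes, the same profile otherwise in every sum and a spread set in advance. Those settings are simpler than these data, so that run does not measure how reliable the calls here are. Shares of cells used SciPy 1.17.1.

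Members were given in full if they passed in 1 of 3 main fits (all cells, the microglia gate, Ms4a7 against microglia) with a mean of at least 10 CPM or were named by rule, and up to 4 genes were named per further list. The members and lists were chosen with earlier results of these data known. The astrocyte comparison was added after the levels had been seen.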

Additional observations from a re-analysis of the deposited data

Results flagged for a closer look

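Between the border-macrophage gate and the microglia gate the Hevin effect on 3 genes of the wider pathway differed by the test of the difference itself (edgeR interaction, library as a block). The difference of the log2 effects was −2.11 for Apoe (edgeR adjusted p = 4.79e-07), −2.16 for Msr1 (edgeR adjusted p = 8.86e-05) and −0.84 for Cyp27a1 (edgeR adjusted p = 0.00121). In each the rise in the Hevin libraries was larger in the microglia gate, where Ms4a7 and border-macrophage markers also rose. The part of those cells in the difference was not tested.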

How the results depend on the processing

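Of 3199 values of the members under the alternatives over all comparisons, 3060 kept their side of the threshold or, without a test, stayed within the SE. A further 49 lost and 54 gained a call, and 36 without a test moved by more than the SE. None with a call changed direction. A change of direction between fits without a call was counted as kept. The pooled count does not measure how stable the calls were, since a member without a call had none to lose. No member was called in the microglia, border-macrophage and endothelial gates or in the interaction. There 411 of 422, 351 of 352, 330 of 330 and 236 of 238 values were kept. For all kept cells 15 of 360 values lost a call and 8 gained one. Over all cells (2131 genes called, 5 members higher, 1 lower), total counts as the scaling gave 2 members higher and 3 lower, cells of at least 3000 UMIs 1323 genes, 3 higher and 0 lower, and removing the top 5% of doublet scores 0 lower. In the microglia gate (177 genes, 0 members) DESeq2 gave 330 genes and 2 members higher, no filter on low counts 692 and 2, the gate at 0.4% 754 and 2, the gate at 0.8% 33 genes, and doublet removal 93. In border macrophages (51 genes) no filter gave 270, and in endothelial cells (3 genes) no filter gave 219, DESeq2 20 and a mean of at least 10 CPM 0. For Ms4a7 against microglia (7 higher, 4 lower), total counts gave 4 higher and 7 lower, DESeq2 4 and 2, and a fit of 2 gates 7 lower. The cause was not tested.

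Leaving out each library gave 1632 to 2599 genes, 2 to 5 members higher and 0 to 1 lower over all cells, 104 to 208 genes in the microglia gate, 113 to 367 in border macrophages, 23 to 70 in endothelial cells, and 104 to 220 genes with 0 to 1 member lower in the interaction (96 genes, 0 members). A lone library was assumed to vary like the others. The replicate numbers do not pair the libraries by any label, and same-numbered libraries deviated together with a correlation of 0.357 over all cells, 0.463 in the microglia gate and 0.260 in border macrophages. With the replicate block the counts were 4533 genes and 7 members lower over all cells, 1169 genes, 3 members higher and 2 lower in the microglia gate, 258 genes and 1 member higher in border macrophages, and 211 genes in endothelial cells.

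With 2 libraries per group the spread is poorly known, and synthesis genes at a few CPM, such as Sqle in the microglia gate, rest on few UMIs (20 and 25 in the Hevin libraries).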

Other observations

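The few cells of the mCherry libraries that fell in the Ms4a7 gate, 71 and 37, were not tested against those of the Hevin libraries. Their Abca1 was at 209 and 295 CPM, against 474 and 498 CPM in the Ms4a7 gate of the Hevin libraries, and their Plin2 at 66.6 and 78.0 CPM against 72.9 and 70.8 CPM. Apoe in them was at 9538 and 17643 CPM against 33230 and 34863 CPM. These mCherry cells were not alike in makeup to those of the Hevin libraries, since 3 red cell markers summed to 39978 and 33067 CPM in them and to 5.79 and 1.59 CPM in the Hevin cells.

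Of the mCherry cells 412 and 215 passed no gate, and of the Hevin cells 2085 and 576. Their Abca1 was at 112 and 121 CPM against 366 and 275 CPM, and their Apoe at 2485 and 2478 CPM against 21030.0 and 14417 CPM. Plin2 in them was at 68.5 and 64.7 CPM against 59.5 and 60.2 CPM.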
